A study of Mus musculus with 16 samples.

Results

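The 4 unstimulated arrays of the study are described here on their own, out of 16 arrays in all. They were taken by their labels and not by any measured value, and they hold total RNA of macrophages that were lysed before any lipopolysaccharide (LPS) was given. The cells came from the marrow of male C57BL/6Jax mice and had been grown for 9 days in medium with 10 ng/mL M-CSF, and the adherent cells were used. Of the 4 arrays, 2 carry wild-type cells (WT) and 2 carry cells lacking the microRNA miR-155 (miR-155 KO), with replicates 1 and 2 of each. All 4 share the M-CSF culture and the absence of LPS. The labels do not say whether the replicates came from separate mice or cultures. The resting p-values between replicate numbers come from the spread between the WT and KO array within a replicate number, which may be technical. They do not measure how far further replicates would differ. The other 12 arrays hold the same genotypes after 6, 12 or 24 h in 100 ng/mL LPS, and they serve below only to show whether a difference between replicate numbers is seen outside the resting cells. Genotypes were not compared.

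M-CSF binds the receptor Csf1r on marrow progenitors, keeps the cells alive and drives them to become macrophages under the transcription factors Spi1 (PU.1) and the C/EBP family. A resting macrophage is a scavenger: it takes up dying cells, lipoproteins, iron and microbes, digests them in lysosomes and carries the sensors that let it answer a microbial signal within minutes. Its inflammatory cytokine genes are kept quiet until such a signal arrives, and many of them are switched on through the transcription factor NF-kB. The steady state therefore shows which part of this equipment is already transcribed and which part is not.

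Each value is a log2 level, the log2 of the scanner's processed intensity minus the 75th percentile of all probes of that array, so that 0 marks the upper quartile of the array. The 75th percentile was 481.4 and 729.9 intensity units on the WT arrays (replicates 1 and 2) and 354.0 and 688.4 on the KO arrays, and the share of probes well above background ranged from 62.0% to 67.6%. The scanner software's own test put 24142 of 41139 measured probes well above background on all 4, and these stood for 15692 genes, each read at its brightest such probe. The number of arrays limits the precision. Brightness also depends on the probe: among 5737 genes with several detected probes, the brightest and dimmest differed by a median of 2.63 log2 units, so the order below is one of signal and not of transcript number. An SD given with a level covers the 4 arrays, genotypes and replicate numbers together. Replicate 1 and replicate 2 arrays were scanned in different sessions, per the file headers, and each replicate number holds 1 array of each genotype. Both replicate 1 arrays were on slide 1, and those of replicate 2 on slides 3 (WT) and 4 (KO). Between replicate numbers, session, slide and replicate culture cannot be told apart.

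The order of signal at rest was led by ribosomal RNA, lysosomal proteases, ferritin, lysozyme and ribosomal proteins. Levels over the 15692 genes ran from -6.03 to 10.06 with a median of 0.02. The 100 brightest genes, all at 7.52 or more, gave 24.7% of the summed signal, and the 10 brightest gave 5.1%. Of the 100, 32 were ribosomal protein genes, and all 97 ribosomal protein genes detected had a median level of 7.09 and 11.9% of the summed signal. The share held by the 100 brightest was 28.7% and 30.4% on the replicate 1 arrays (WT and KO) and 19.7% and 20.4% on the replicate 2 arrays, so the signal was more concentrated on the first pair.

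**Figure D1:**
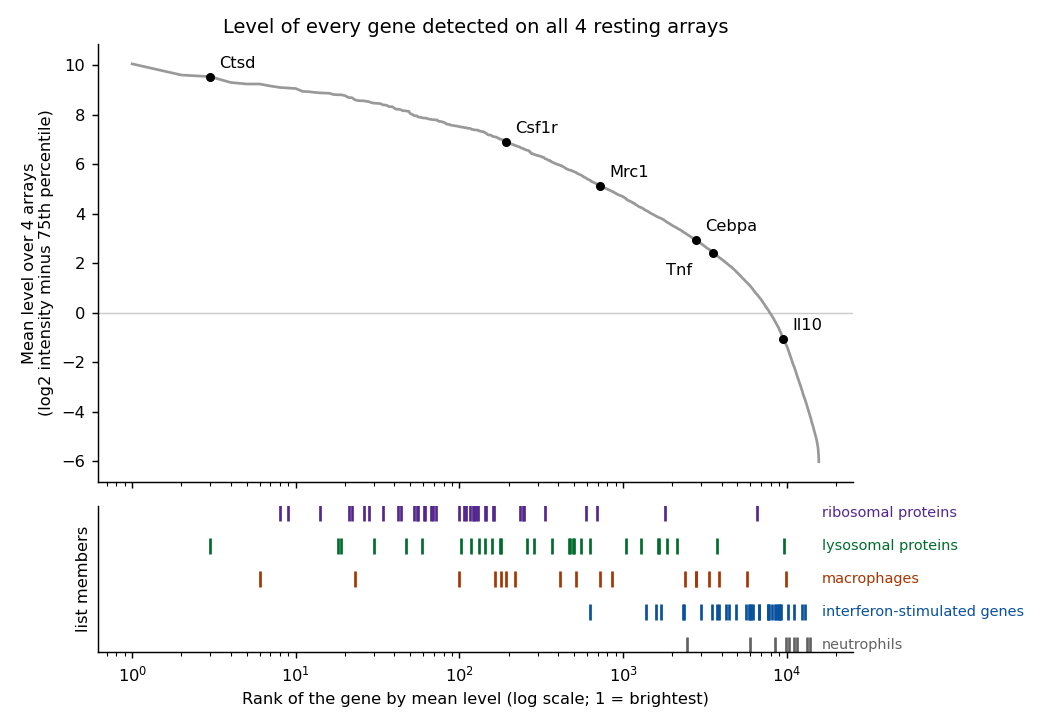
Mean log2 level over the 4 resting arrays (upper panel, vertical axis) of 15692 genes against their rank (horizontal axis, log scale), with 6 genes marked. Ticks in the lower panel show the ranks of the detected members of 5 lists: ribosomal and lysosomal proteins lie toward the bright end (median ranks 103 and 327.5) and neutrophil markers toward the dim end (median rank 10358).

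Lysosomal genes were at the top. Ctsd, the aspartic protease of the lysosome, was the brightest of the 30 lysosomal genes, and all 30 were detected on all 4 arrays. Its level was 10.08 and 8.85 in WT replicates 1 and 2 and 10.25 and 9.02 in KO replicates 1 and 2, a mean of 9.55 ± 0.72 (SD, n = 4), at rank 3 (probe at mm9 chromosome 7, 149561962 to 149562021). The cysteine proteases Ctss (8.82 ± 0.83), Ctsb (8.81 ± 0.85) and Ctsl (8.48 ± 0.66) followed at ranks 18, 19 and 30 (SD, n = 4). The median of the 30 was 6.25, against 0.02 for all detected genes. The dimmest was Ctsk, the collagen-degrading protease of osteoclasts, at -1.14 ± 0.84, and Npc1, which moves cholesterol out of the lysosome, stood at 2.31 ± 0.38.

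Lysozyme and iron storage genes shared the top ranks. Lyz2, the lysozyme of macrophages, was at 9.89 and 8.44 in WT and 10.22 and 8.45 in KO (replicates 1 and 2), with rank 6. Fth1, the heavy chain of ferritin, was at 10.06 and 8.14 in WT and 10.36 and 8.11 in KO, with rank 7, and Ftl1, the light chain, at 8.78 ± 0.27. Both Lyz2 and Fth1 were brighter on each replicate 1 array than on either replicate 2 array. Replicate pairs without overlap, in either direction, made up 80.3% of all detected genes. Of 14 iron genes on the array, 12 were detected on all 4 arrays. Of those 12, 7 were called higher in replicate 2 and 1, Fth1, lower, by the test described below. Read as the median of probes, 4 were higher and 1 lower. Over all genes 19.2% were called higher and 29.1% lower. Hmox1, which breaks down haem, was at 6.17 ± 0.12 and Slc11a1, the phagosomal metal transporter, at 5.06 ± 0.19. Hamp (hepcidin) and Heph (hephaestin) were not above background on any array.

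Beside those named, the 40 brightest genes included S100a4, a calcium-binding protein of motile cells (8.95 ± 0.40), Tmsb4x, which binds actin monomers (8.88 ± 0.46), Trem2, a lipid-sensing receptor of macrophages (8.61 ± 0.51), its signalling partner Tyrobp (8.55 ± 0.41), Apoe, the lipoprotein component (8.58 ± 0.97), and the galectins Lgals1 (8.33 ± 0.58) and Lgals3 (8.33 ± 0.91). Some top places rested on 1 probe that others of the same gene did not share. Ptprz1, a receptor phosphatase of glial cells, had rank 2 at 9.61 through 1 of its 4 probes, while the other 3 had means of -6.76 to -8.63 and were above background on at most 1 array. Lrrc58 had rank 4 at 9.31, and its other 3 probes had means of 1.39, -1.32 and -2.11. The leading probe of Rps29 is placed by the array file on mm9 chromosome 2, 172335024 to 172335083, and ribosomal protein genes have many near-identical copies, so their single ranks are uncertain.

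**Figure D2:**
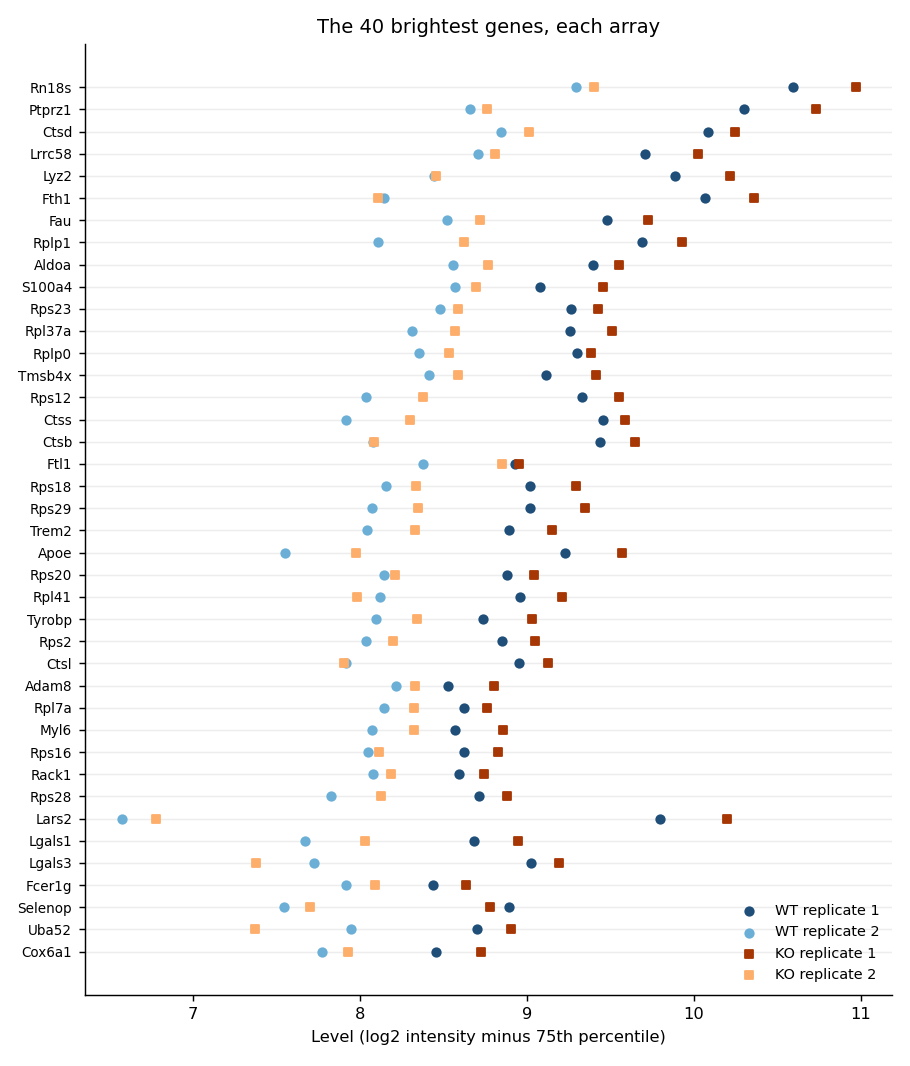
Log2 level (horizontal axis) of the 40 brightest genes with ordinary symbols on each of the 4 resting arrays, 1 point per array and no error bars. Lars2 spans the widest range of the 40, from 6.57 to 10.20, while Ftl1 lies between 8.38 and 8.95.

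Most macrophage markers were well above background, and several lay among the 200 brightest genes. Csf1r, the M-CSF receptor, stood at 7.25 and 6.44 in WT and 7.35 and 6.63 in KO (replicates 1 and 2), rank 193. Mrc1, the mannose receptor CD206, stood at 4.39 and 5.82 in WT and 4.45 and 5.89 in KO, rank 723. Cebpa, a transcription factor of the myeloid lineage, stood at 3.60 and 2.08 in WT and 3.81 and 2.27 in KO, rank 2795. Replicate 1 and replicate 2 arrays did not overlap for any of the 3, with Mrc1 brighter and the other 2 dimmer in replicate 2. Such pairs without overlap made up 80.3% of all detected genes, and 48.3% passed the test between replicate numbers described below. The Csf1r difference of -0.77 ± 0.13 (adjusted p = 0.0104 in limma) did not pass when the arrays were scaled to their medians, without KO replicate 1, or as the median of its probes, where it was 0.02. Of 20 macrophage markers, 18 were detected on all 4 arrays with a median level of 5.41, led by Lyz2, Trem2, Adgre1 (F4/80, 7.52 ± 0.21) and Fcgr3, a receptor for antibodies (7.11). The lowest were the dead-cell receptor Mertk (2.56 ± 0.22), the scavenger receptor Msr1 (2.24 ± 0.23), Spi1 (1.21 ± 0.27) and the haemoglobin scavenger receptor Cd163 at -1.31 ± 1.20. Cx3cr1 and Timd4, markers of some tissue macrophages, were the 2 markers above background on only some arrays (named after their values were seen).

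Promoters of Ctsd and Mrc1 are shown because they stand for the lysosomal and the receptor equipment of these cells. They are RefSeq sequences of GRCm38.p6, the 200 bases before the annotated start, read 5′ to 3′ on the strand of the gene. Capitals mark TCACGTGA, the E-box of the lysosomal CLEAR element bound by TFEB-type factors, and GAGGAA, a core of PU.1 sites, searched on both strands (the second reads TTCCTC on the other strand).
Ctsd (chr7:142387828-142388027, minus strand): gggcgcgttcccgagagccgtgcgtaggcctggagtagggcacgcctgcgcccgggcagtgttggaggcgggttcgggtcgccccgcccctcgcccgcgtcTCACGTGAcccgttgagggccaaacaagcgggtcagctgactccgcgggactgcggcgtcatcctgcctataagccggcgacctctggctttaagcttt
Mrc1 (chr2:14229214-14229413, plus strand): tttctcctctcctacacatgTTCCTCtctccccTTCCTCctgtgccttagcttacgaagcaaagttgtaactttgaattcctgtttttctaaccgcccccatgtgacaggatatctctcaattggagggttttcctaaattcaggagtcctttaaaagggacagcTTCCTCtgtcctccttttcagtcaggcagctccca
TCACGTGA lay in the window from 250 bases before to 50 after the start in 5 of 24 lysosomal genes with a promoter in the table (20.8%) and in 2.1% of the 10309 detected genes in it. GAGGAA lay in 7 of 13 macrophage marker genes (53.8%), in 12 of 24 lysosomal genes, in 10 of 21 feedback genes (47.6%) and in 30.3% of the detected genes. The share was 36.8% for immediate early and heat shock genes. It was 42.1% and 38.4% for the genes, described below, called higher and lower in replicate 2 by more than 3 log2 units. Over all 27025 genes in the table the shares were 1.1% for TCACGTGA and 31.3% for GAGGAA. These are matches of letters and not measured binding.

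Other cell types gave less signal. Markers of neutrophils were detected on all 4 arrays for 9 of 14 genes on the array, with a median level of -1.62, and their summed level (the log2 of their summed signal) was 5.70 and 5.09 on the replicate 1 arrays (WT and KO) and 1.95 and 2.27 on the replicate 2 arrays. S100a9 and S100a8, the calprotectin subunits abundant in neutrophils and monocytes, were the brightest at 3.16 ± 1.95 and 1.09 ± 2.44, and Elane, neutrophil elastase, was not above background on any array. Of 8 monocyte markers detected on all 4 arrays the brightest was Spn at 0.23 ± 0.32, and their summed level was 2.65 and 2.35 in replicate 1 and 1.11 and 1.45 in replicate 2. Of 10 B cell markers, 5 were above background on no array (Ms4a1, Pax5, Ebf1, Igll1 and Blk), and Cd3g, Ncr1, Gzma and Eomes of 14 T and NK cell markers were likewise. Stromal and platelet lists were dim except for Acta2, smooth muscle actin, at 6.04 ± 0.26, the chemokine Pf4 at 7.39 ± 0.13, which macrophages also express, and Vwf at 4.01 ± 0.31. Lum, Pdgfra, Thy1 and Lepr of 13 stromal markers and Cldn5 and Tie1 of 8 endothelial markers were above background on no array. Over the 20022 genes with a reference symbol 23.9% were above background on none, and silent shares near that are no result about a list. Of 11 osteoclast markers 10 were detected on all 4 arrays, with a median level of -0.73. The part of other cell types in the levels of other genes was not tested.

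Of 348 immune genes on the array from 17 lists, 274 (78.7%) were above background on all 4 resting arrays, 28 on some and 46 (13.2%) on none. Over the 20022 genes with a reference symbol, 64.6% were above background on all 4 and 23.9% on none. A gene counted as silent here has no probe well above background on any of the 4 arrays, which does not show that it is not transcribed. The count of silent members depended on the flag: with the scanner's weaker test of a positive and significant signal, 9 in place of 46 remained. It was 54 without WT replicate 1 and 46 to 49 without each of the others.

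**Figure D3:**
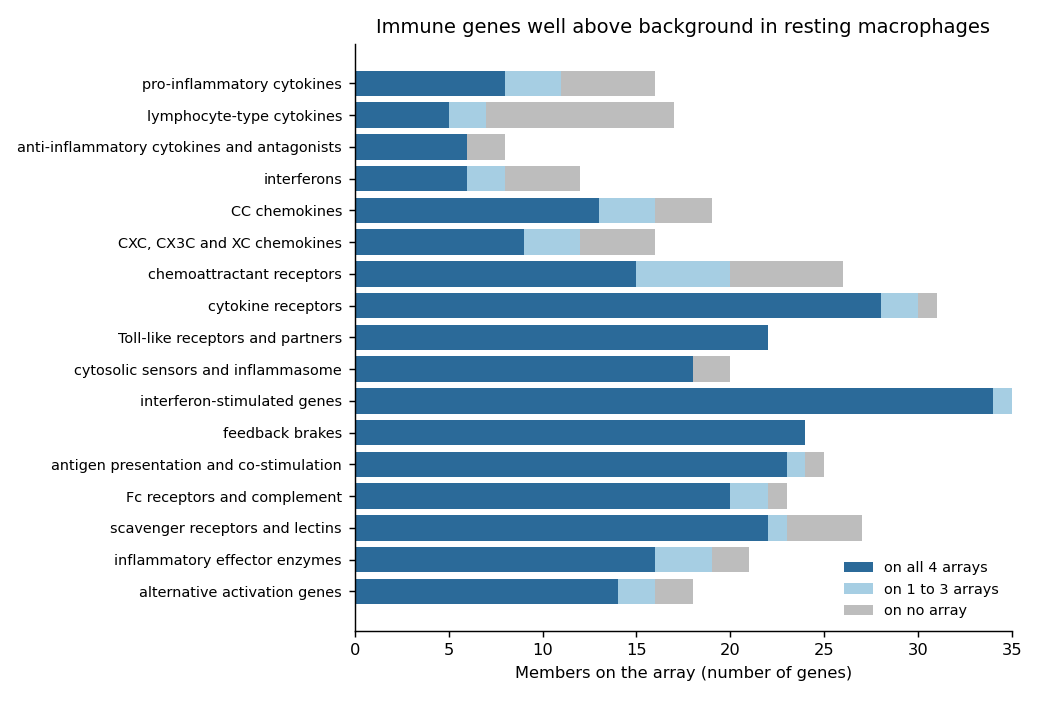
Number of members (horizontal axis) of each of 17 immune lists that were well above background on all 4, on 1 to 3, or on none of the resting arrays. Toll-like receptors, feedback regulators and interferon-stimulated genes have no silent member, and 10 of 17 lymphocyte-type cytokines are silent.

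The sensing equipment was present. All 22 Toll-like receptors and partners on the array were detected on all 4 arrays, with a median level of 1.55. The brightest were Unc93b1, which brings nucleic acid-sensing receptors to endosomes (6.16 ± 0.27), Cd14, the LPS co-receptor (5.96 ± 0.37), Ly86 (5.68 ± 0.19) and Tlr7, the sensor of single-stranded RNA (3.57 ± 0.79). The lowest were Tlr5, the flagellin receptor (-4.15 ± 1.1), Lbp (-4.13 ± 0.31), Ticam2 (-3.15 ± 0.12) and Tlr3, the sensor of double-stranded RNA (-2.92 ± 0.28). Of 20 cytosolic sensor and inflammasome genes, 18 were detected on all 4 arrays. The adaptor Pycard (5.02 ± 0.14) and the protease Casp1 (4.45 ± 0.13) led, Nlrp3 stood at -2.70 ± 0.12, and Nlrp6 and Aim2 were above background on none.

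Cytokine receptors were bright and cytokines mostly were not. Of 31 receptors, 28 were detected on all 4 arrays with a median of 2.87, led by Csf1r, Csf2ra (6.38 ± 0.33), Il10rb (6.00 ± 0.29) and Csf2rb2 (5.50 ± 0.49), and Il18r1 was silent. Among 16 pro-inflammatory cytokines, Il6, Il12a, Il12b, Il23a and Csf3 were silent on all 4 arrays. The brightest were Ebi3, the beta subunit shared by IL-27 and IL-35 (4.54 ± 0.25), and Tnf (2.41 ± 2.57). Of 17 lymphocyte-type cytokines, 10 were silent: Il3, Il9, Il17a, Il21, Il22, Il31, Ifng, Fasl, Cd40lg and Tnfsf11. Ifnb1, Ifna4, Ifnk and Ifne of 12 interferon genes were silent, and the detected members reached at most -3.21. Probes of the interferon alpha family may read more than 1 of its near-identical genes.

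Interferon-stimulated genes were detected at rest. Of 35, 34 were detected on all 4 arrays, with a median of 0.99. Bst2 (tetherin) was at 5.35 ± 0.23 and Ifi204 at 3.91 ± 0.12. At the low end, Ifi44 was at -3.46 ± 0.79, Mx1 at -3.12 ± 0.52 and Oasl1 at -2.14 ± 0.67.

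Chemokines divided by member. Pf4 (7.39 ± 0.13), Ccl9 (6.92 ± 0.28) and Ccl6 (6.72 ± 0.66) were the brightest. Cxcl5, Cxcl11, Cxcl13, Xcl1, Ccl1, Ccl11 and Ccl22 were silent. Of 26 chemoattractant receptors 15 were detected on all 4 arrays, led by the complement receptor C3ar1 (4.42 ± 0.16), and Ccr4, Ccr7, Ccr8, Cxcr1, Cxcr5 and Ackr3 were silent.

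Receptors for opsonins and debris, complement and antigen presentation spanned the whole range. Of 23 Fc receptor and complement genes on the array, 20 were detected on all 4 arrays with a median of 3.83, led by Fcer1g, the shared gamma chain (8.27 ± 0.33), properdin Cfp (7.62 ± 0.14), and the C1q chains C1qc (7.55 ± 0.61) and C1qb (7.13 ± 0.26). C8a was silent and Cfb low at -4.45 ± 1.19. Of 27 scavenger receptors and lectins 22 were detected on all 4 arrays, with Stab1 (7.19 ± 0.13) and Clec4d (7.19 ± 0.44) after the galectins, while Cd209b, Cd209d, Cd209e and Olr1 were silent. Class I genes were bright (H2-D1 at 7.54 ± 0.19, H2-K1 at 7.46 ± 0.31 and B2m at 7.33 ± 0.16). Class II H2-Aa stood at -0.98 ± 2.25 and Ciita, the factor that switches class II genes on, at -2.71 ± 2.50, with a spread that followed the replicate number.

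Effector and polarisation genes were split. The leukotriene cofactor Alox5ap (6.65 ± 0.15), Ncf4 of the NADPH oxidase (6.23 ± 0.86), Hmox1 and Cyba (5.58 ± 0.48) were bright, and Nos2, the inducible nitric oxide synthase, and Alox15 were silent. Arg1 was at -4.16 ± 1.49. Of 18 alternative activation genes 14 were detected on all 4 arrays, led by Mrc1, Tgm2 (4.24 ± 1.33), Il4ra and Pparg (3.30 ± 0.26), and Retnla and Ccl22 were silent. All 33 cell cycle genes were detected on all 4 arrays, with Pcna at 6.21 ± 0.65 and Mki67 at 3.91 ± 0.21.

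The replicate numbers were the main axis of difference. Arrays of the same replicate number but different genotype differed by a median of 0.14 (replicate 1, same slide) and 0.18 (replicate 2, different slides) log2 units per gene. Their Pearson correlations across 15692 genes were 0.995 and 0.994. Arrays of the same genotype but different replicate number differed by a median of 0.47 (WT) and 0.53 (KO), with correlations of 0.961 and 0.953. Genes are not independent replicates, so these correlations carry no test. Of the 50 brightest genes per array, 48 and 44 were shared within a replicate number and 40 or 41 between numbers.

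Of 15692 genes, 7580 (48.3%) were called between replicate numbers at an adjusted p under 0.05 in limma, 3011 (19.2%) higher and 4569 (29.1%) lower in replicate 2. Among the called genes, 937 were higher and 2452 lower by more than 1 log2 unit. The split rests on the scaling: scaled to the median, 7220 of 9497 calls were higher (76.0%), with quantile normalization 3912 of 7418 (52.7%), against 39.7% here, and the median difference of all genes was 0.44, 0.02 and -0.11 in turn. Directions of differences under about 1 log2 unit are therefore not given as results without that check. The count was 3378 without KO replicate 1, 4528 without WT replicate 1 and 7124 and 7258 without KO and WT replicate 2. The added control transcripts moved too: 7 of the 10 were 2.27 to 2.89 log2 units brighter on the replicate 2 arrays before scaling, and the slope of their signal against the amount added was 0.813 and 0.823 on the replicate 1 arrays, outside the software's own range, and 0.976 and 0.973 on the others. Their part in the gene differences was not tested.

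**Figure D4:**
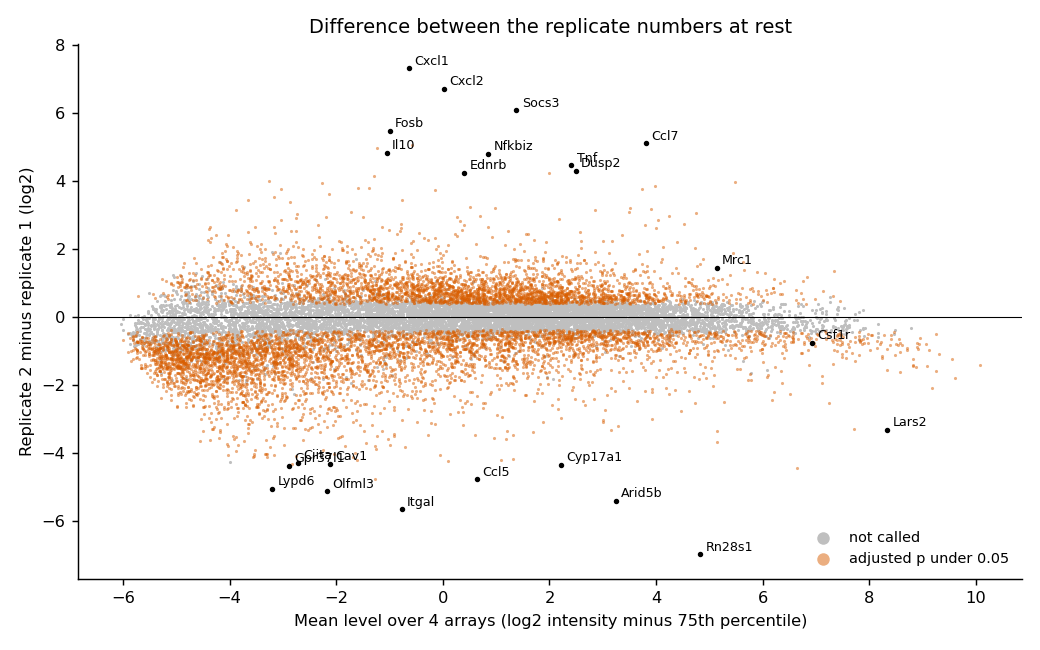
Replicate 2 minus replicate 1 difference in log2 level (vertical axis) against mean log2 level over the 4 arrays (horizontal axis) for 15692 genes, with the 7580 called genes in orange, the others in grey and 23 genes named. The extremes are Cxcl1 at 7.30 and Rn28s1 at -6.99.

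Some chemokine genes were among those most raised in replicate 2, while the chemokine lists as a whole were mixed. Cxcl1, a neutrophil-attracting chemokine (probe at mm9 chromosome 5, 91321845 to 91321904), was at -4.39 (WT) and -4.19 (KO) in replicate 1 and 2.72 and 3.30 in replicate 2, a difference of 7.30 ± 0.22 log2 units (SE, adjusted p = 0.00116 in limma). The related Cxcl2 (91334534 to 91334593) was at -3.41 and -3.25 in replicate 1 and 3.35 and 3.41 in replicate 2, a difference of 6.71 ± 0.12 (adjusted p = 0.00103). Neither had overlap between the pairs, and both went from below the upper quartile of the array to well above it. Ccl2, which attracts monocytes, was at 3.85 and 3.14 in replicate 1 (WT and KO) and 7.42 and 7.49 in replicate 2, a difference of 3.96 ± 0.26. The related Ccl7 was higher by 5.10 ± 0.25, Ccl3 by 3.75 ± 0.41 and Ccl4 by 3.03 ± 0.27. Of the 13 CC chemokines detected on all 4 arrays, 5 were called higher and 3 lower, and the median difference was -0.13 against -0.11 over all genes. Of 9 CXC, CX3C and XC chemokines, 2 were higher and 3 lower (5 and 2 with quantile normalization, 6 and 2 scaled to the median). Over all genes 48.3% were called, 19.2% higher and 29.1% lower. With quantile normalization 3912 of all 7418 calls were higher, and scaled to the median 7220 of 9497. The counts of these 2 lists are therefore not taken as a result about them.

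Promoters of Cxcl1 and Cxcl2 are printed because these nearby genes on chromosome 5 had the largest differences among genes higher in replicate 2. Capitals mark the NF-kB consensus, searched on both strands in the same RefSeq windows.
Cxcl1 (chr5:90891045-90891244, plus strand): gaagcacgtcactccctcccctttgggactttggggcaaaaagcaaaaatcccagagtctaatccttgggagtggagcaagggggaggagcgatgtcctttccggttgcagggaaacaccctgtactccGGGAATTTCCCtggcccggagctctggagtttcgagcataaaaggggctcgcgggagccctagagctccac
Cxcl2 (chr5:90903699-90903898, plus strand): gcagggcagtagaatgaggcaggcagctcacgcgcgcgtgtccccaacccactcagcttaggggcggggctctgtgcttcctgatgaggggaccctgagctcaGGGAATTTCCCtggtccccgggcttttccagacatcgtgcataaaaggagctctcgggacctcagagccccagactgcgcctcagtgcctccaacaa
In both, 2 overlapping matches form the same run of 11 letters. The consensus lay in 5 of the 19 genes with a promoter in the table among 38 called genes higher by more than 3 log2 units (26.3%), in 8 of 73 among 127 lower by more than 3 (11.0%), and in 11.9% of the 10309 detected genes with a promoter. Over all genes in the table it was 9.6%. On the lists it was 7.7% for macrophage markers, 20.8% for lysosomal genes, 33.3% for feedback genes and 36.8% for immediate early and heat shock genes. The 38 and 127 genes were chosen by this difference, so the shares are a description.

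Cytokine lists differed. Tnf, the early inflammatory cytokine, was at 0.16 and 0.21 in replicate 1 (WT and KO) and 4.56 and 4.71 in replicate 2, a difference of 4.45 ± 0.12 (adjusted p = 0.00108). Il10, the anti-inflammatory cytokine, was at -3.55 and -3.39 and then at 1.08 and 1.63 in replicate 2, a difference of 4.82 ± 0.21 (adjusted p = 0.00154). Of the 8 pro-inflammatory cytokines detected on all 4 arrays, 5 were higher and 0 lower (Tnf, Tnfsf9, Osm, Il1b and Csf1), with a median difference of 2.04. Without each array in turn, 5 or 6 were higher and 0 lower. Of 6 anti-inflammatory genes 2 were higher and 2 lower, and of 5 lymphocyte-type cytokines 0 and 2 (2 and 1 scaled to the median). Of 6 interferons 0 were higher and 4 lower (0 and 2 scaled to the median), with a median difference of -0.95. The shares over all genes were 19.2% higher and 29.1% lower. The lymphocyte-type and interferon lists are dim (median levels -4.11 and -3.76). Among 1570 detected genes at -6.03 to -4.35, 56.6% were called, with a median difference of -0.77. Among 1569 at -4.35 to -3.27, 61.4% were called, with a median difference of -0.69. The counts of these dim lists are therefore no result about them. Il1a, Csf2 and Cxcl3, named after their values were seen, were above background on both replicate 2 arrays and on neither replicate 1 array, and Tnfsf15, Ifnl3, Cxcr2, Cx3cr1 and C6 were the reverse. Over all 27612 genes on the array, 188 were above background on the replicate 2 pair alone and 1070 on the replicate 1 pair alone.

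Brakes on inflammatory signalling and immediate early genes did likewise. Of 24 feedback genes, 11 were called higher in replicate 2 and 5 lower, against 19.2% higher and 29.1% lower over all genes. Socs3, which blocks cytokine receptor signalling, was at -1.57 and -1.73 in replicate 1 and 4.25 and 4.57 in replicate 2, a difference of 6.06 ± 0.16. Nfkbiz, an NF-kB cofactor, was higher by 4.78 ± 0.11, and the MAP kinase phosphatases Dusp2 and Dusp1 by 4.29 ± 0.21 and 3.19 ± 0.14. Of 25 immediate early and heat shock genes, 15 were higher and 1 lower, with a median difference of 1.1. The transcription factor genes Fosb, Egr1 and Egr3 were higher by 5.45 ± 0.18, 4.22 ± 0.29 and 3.53 ± 0.12, while Hspa8 differed by -0.12 ± 0.13 and was not called. Scaled to the median, 15 feedback genes were higher and 2 lower, and 22 immediate early genes were higher and 0 lower. That scaling moved genes upward at large: of all 15692 genes, 7220 were called higher and 2277 lower, with a median difference of 0.44. The counts without each array in turn were 8 to 11 higher feedback genes and 13 to 16 higher immediate early genes.

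**Figure D5:**
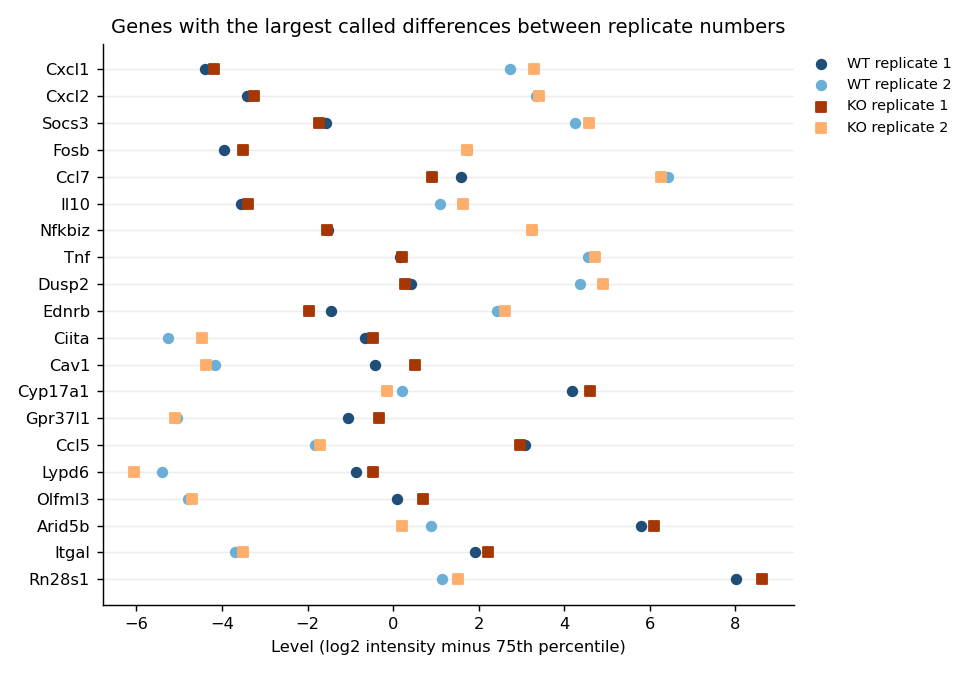
Log2 level (horizontal axis) on each of the 4 resting arrays for the 10 genes called highest and the 10 called lowest in replicate 2, 1 point per array. In each gene the 2 points of a replicate number lie together and the pairs do not overlap, the pairs being more than 3 log2 units apart.

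Genes lower in replicate 2 included class II antigen presentation genes and neutrophil and monocyte markers. The probe named Rn28s1, for a ribosomal RNA, had the largest difference, but the array file places it on mm9 chromosome 2, 22600367 to 22600426, so what it reads is uncertain. It was at 8.02 and 8.63 in replicate 1 (WT and KO) and 1.14 and 1.52 in replicate 2. Itgal, the integrin alpha chain of LFA-1, was at 1.91 and 2.22 and then at -3.70 and -3.51, a difference of -5.66 ± 0.16 (adjusted p = 0.00108). Ccl5, a chemokine for T cells and monocytes, went against Ccl2 and Ccl7, at 3.08 and 2.96 in replicate 1 and -1.82 and -1.70 in replicate 2. Lars2, the mitochondrial leucyl-tRNA synthetase, was at 9.80 and 10.20 and then at 6.57 and 6.78.

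The class II genes H2-Aa, H2-Ab1 and H2-Eb1 and their activator were lower. Ciita was at -0.66 and -0.47 in replicate 1 and -5.25 and -4.46 in replicate 2, a difference of -4.29 ± 0.28 (adjusted p = 0.00187). H2-Aa was at 0.50 and 1.31 in replicate 1 and -3.43 and -2.32 in replicate 2, a difference of -3.78 ± 0.46, and H2-Ab1 and H2-Eb1 differed by -3.60 ± 0.44 and -3.35 ± 0.37. Of 23 antigen presentation genes 9 were lower and 2 higher (8 and 6 scaled to the median). The 11 called of 23 are close to the 48.3% over all genes, so the count of the list is no result about it. Class I H2-D1 differed by -0.12 ± 0.18 and was not called. In the same arrays 8 of 9 neutrophil markers and 6 of 8 monocyte markers were lower and 0 higher, and with quantile normalization or scaled to the median 1 monocyte marker was higher. S100a8 differed by -4.21 ± 0.21, the monocyte receptor Ccr2 by -3.27 ± 0.12 and Itgax, an integrin of dendritic cells and macrophages, by -1.61 ± 0.26. These lists hold genes of cells other than macrophages, and in bulk RNA fewer cells of a type and less RNA per cell cannot be told apart. Their part in the class II difference was not tested.

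Lipid genes differed both ways. Of 22, 9 were higher in replicate 2 and 8 lower, and scaled to the median 10 were higher and 4 lower, against 19.2% higher and 29.1% lower over all genes. The fatty acid synthesis genes Scd1 (3.79 ± 0.59), Scd2 (3.16 ± 0.15) and Fasn (2.72 ± 0.14) and the sterol synthesis gene Sqle (2.23) were higher. The apolipoproteins Apoc1 (-3.48 ± 0.36), Apoc2 (-2.18 ± 0.25) and Apoe (-1.64 ± 0.21) were lower, as was Nr1h3, the oxysterol receptor LXR-alpha. Of 33 cell cycle genes 13 were higher and 0 lower, with Pcna at 1.11 ± 0.12 and Mcm3 at 1.42 ± 0.19. Their median difference was 0.35 against -0.11 over all genes, and 0.32 without KO replicate 1. Scaled to the median 28 were higher, a scaling under which 7220 of all 15692 genes were called higher.

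The brightest genes were lower in replicate 2 under the main scaling, but not under every scaling. Of the 40 brightest, 37 were called lower and 0 higher. With quantile normalization 6 were lower and 5 higher, scaled to the median 16 and 0, and without KO replicate 1 16 and 0. Of 38 ribosomal protein genes 19 were lower and 0 higher, against 2 and 0 with quantile normalization and 3 and 3 scaled to the median. Over all 15692 genes 29.1% were called lower and 19.2% higher under the main scaling. The 19 called of 38 are close to the 48.3% called over all genes, so that count is no result about the ribosomal list. Fth1 and Lars2 were called lower under both scalings and without each array in turn. Of the 200 brightest genes, those with the smallest spread were Chchd2 (7.01 ± 0.04), Sem1 (7.18 ± 0.06) and Serinc3 (6.99 ± 0.08), and those with the largest were Lyz1 (7.71 ± 1.96), Lars2 (8.34 ± 1.93) and Fbxo2 (7.24 ± 1.48).

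The resting difference between replicate numbers was set against that on the 12 other arrays, in a fit over all 16. Those 12 were all given LPS, so a difference particular to rest and one hidden under LPS cannot be told apart. In 15674 genes with a value on all arrays, 1137 (7.25%) had a replicate difference at rest that was not that of the other 12 arrays (interaction in limma, adjusted p under 0.05; 3881 at an unadjusted p under 0.05). Cxcl1 differed by 7.30 at rest and by -0.96 on average over the other 6 groups (interaction adjusted p = 0.000731), and Tnf by 4.45 and 0.44 (adjusted p = 0.00792). Socs3 differed by 6.06 and 0.85 (adjusted p = 0.000779), H2-Aa by -3.78 and 0.46 (adjusted p = 0.000149) and Itgal by -5.66 and -0.45 (adjusted p = 0.000215). Mrc1 differed by 1.43 and -0.07 (adjusted p = 0.0137). For Rn28s1 the differences were -6.99 and -5.61 (adjusted p = 0.131), for Lars2 -3.32 and -2.58 (adjusted p = 0.365), for S100a8 -4.21 and -3.73 (adjusted p = 0.563), and for Cebpa -1.53 and -1.98 (adjusted p = 0.466), each with the same sign in all 6 other groups. Of 7571 genes called at rest with a value on all arrays, 4174 (55.1%) had the same sign in all 6.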

How the data were processed

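Total RNA of the 4 unstimulated samples was measured on single-colour (Cy3) Agilent arrays of 41174 probes. Per the file headers, the scanner output was made with Agilent Feature Extraction 10.5.1.1, a tool also named in the submitters' processing notes, and probe positions are those of mm9. The deposited intensity is the software's processed signal per spot, background-subtracted and detrended within the array, per the file headers. The deposited series table holds log2 values, used as an alternative.

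Outlier spots and control spots were dropped, the log2 intensity was averaged per probe, and the 75th percentile of the array was subtracted. Probes had to be well above background on all 4 arrays, and the brightest such probe stood for a gene. Names came from RefSeq gene tables by accession (27021 probes), symbol (5511) or synonym (875), and 7767 kept the name of the array file. The replicate numbers were compared with limma 3.58.1 in R 4.3.3 (2 residual and 2.85 prior degrees of freedom) with Benjamini-Hochberg adjustment at 0.05, and values after ± beside a difference are standard errors. The interaction was fitted over 16 arrays with group means, replicate number and replicate number by rest. Tested on simulated data with 100 genes changed by each size, the comparison of replicate numbers recovered 18% of changes of 1 log2 unit and 73% of changes of 2, with 6 false calls among 15692 genes. Far fewer genes were changed there than the 7580 called in the data. The adjustment depends on that share, so these rates need not hold for the data.

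The members, the 40 lists (729 genes) and the tests were chosen with earlier results of these data known. Genes named are the 40 brightest with an ordinary symbol, Csf1r, Mrc1 and Cebpa, the 10 largest called replicate differences each way, the 5 most and 5 least variable of the top 200, and for each list the 4 brightest, the 4 dimmest, every silent member and up to 4 called members each way, and the text prints a part of them. The array has no probe for miR-155, so the genotype labels were not checked. Alternatives were other scalings, background, filters and probe rules, genotype as a term, and leaving out each array.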

Additional observations from a re-analysis of the deposited data

Results flagged for a closer look

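In 1137 of 15674 genes the difference between the replicate numbers at rest departed from that on the 12 other arrays by the interaction test, in 594 upward and in 543 downward. Cxcl1, Tnf, Socs3, H2-Aa and Itgal are among them, with the values and the limit given above.

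Among 71 genes screened for 1 array far from the others, only Dazap2 was flagged. Its KO replicate 2 was at 7.32 and the others at 7.14 to 7.15, a gap of 0.914 of the whole range. That range is small (SD 0.09). Chance flags about 1 in 20 such groups, and 1 flag in 71 is not above that rate.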

How the results depend on the processing

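No paired analysis was possible because a block on the replicate number would remove the comparison itself, which is between the replicate numbers. Arrays were matched by genotype instead, with genotype as a term. The number of genes called between them was 12227 of 24142 when each probe was tested on its own, 3378 to 7258 when each array was left out in turn (3378 without KO replicate 1, 4528 without WT replicate 1) and 6338 with that term. The lone array left in a replicate number is then assumed to vary like the others. The median absolute difference, 0.49, was 0.65 scaled to the median, 0.58 with the weaker flag for a positive and significant signal and 0.56 with no filter. That flag left 9 silent immune genes in place of 46. Genes detected (15737 to 16039), the share of the 100 brightest (23.0% to 26.5%) and the silent count (46 to 54) moved little without each array. Of the 50 brightest genes, 49 were kept without any 1 array, 46 with normexp and 39 with the median of probes. On replicate 1 or 2 arrays alone, an alternative chosen after seeing the data, 49 and 62 immune genes were silent. The interaction count was 819 to 1116 under 4 other settings. The 20 largest differences kept direction and call in all 200 alternative fits, while 15 alternative levels of the named genes moved by more than 1 SD and 286 did not. Dim probes limit what can be said of silent genes.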
